A study of Mus musculus with 4 samples.

Results

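Wnt ligands are secreted, lipid-modified glycoproteins that bind Frizzled receptors on neighbouring cells, and 10 of their genes were examined for open chromatin in the newborn mouse hippocampus. The genes were Wnt2b, Wnt3, Wnt3a, Wnt5a, Wnt6, Wnt7a, Wnt7b, Wnt8b, Wnt9a and Wnt10a, chosen as ligands of the hippocampus and of the cortical hem from a total of 21938 protein-coding genes. Accessibility was measured by ATAC-seq, in which the Tn5 transposase inserts sequencing adapters into open DNA, in nuclei of hippocampi dissected at postnatal day 0. There were 2 libraries of conditional knockout mice (cKO, genotype Kdm2bEmx1-delta-CxxC) and 2 of control mice (Ctrl), and each library gave 1 list of peaks. The libraries are called Ctrl-1, Ctrl-2, cKO-1 and cKO-2 after the replicate numbers in their titles. In cKO mice a Cre recombinase driven from Emx1, which acts in progenitors of the dorsal telencephalon and their descendants, removes the exon for the CxxC zinc finger of KDM2B. Cells that enter the hippocampus from other lineages, such as interneurons, microglia and vessel cells, keep that exon. The genotype given for Ctrl mice is Kdm2bfl/+ or Kdm2bfl/fl, without saying which library has which, and no label says whether they carry Cre or how many animals a library holds. A peak list gives no coverage outside peaks, so the deletion itself was not checked here.

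In the canonical branch of the pathway, Wnt binding to Frizzled and LRP5/6 stops the destruction of beta-catenin, which then acts with TCF/LEF factors in the nucleus. The cortical hem, at the medial edge of the developing cortex, secretes several Wnt ligands and organises the adjacent hippocampus. KDM2B brings a variant Polycomb repressive complex 1 to CpG islands through its CxxC zinc finger, and the promoters of many developmental genes are such islands. The question of the comparison was whether chromatin at the ligand genes differed between cKO and Ctrl hippocampi.

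Of the 10 genes, 8 lacked a promoter peak in all 4 lists. Of all 21938 protein-coding genes, 13196 had one in at least 1 list. A promoter is taken here as the 2 kb on either side of an annotated transcription start site (TSS), and a peak belongs to it when its summit lies there. Wnt7b had a promoter peak in Ctrl-1 and in both cKO lists, and Wnt5a had 1 in Ctrl-1. Most of these promoters are rich in CpG all the same. Of the 10 genes, 8 have a CpG-rich window around a TSS (300 bp around the TSS with the most CpG where a gene has several, GC of at least 50% and an observed over expected CpG ratio of at least 0.6), and the exceptions are Wnt8b and Wnt10a. Such a window is found at 49.5% of all protein-coding genes. The sequences below set a CpG-rich promoter without a peak (Wnt3) and a CpG-poor promoter (Wnt8b) beside the regions that did have peaks. All are from the GRCm38 (mm10) genome, 5′ to 3′ on the strand of the gene named. The Wnt3 and Wnt8b sequences are the 250 bases upstream of the TSS, and the others are 300 bases centred on a peak summit. In the following sequences the capitals mark CpG dinucleotides.
Wnt3 promoter, chr11:103773900-103774149, plus strand: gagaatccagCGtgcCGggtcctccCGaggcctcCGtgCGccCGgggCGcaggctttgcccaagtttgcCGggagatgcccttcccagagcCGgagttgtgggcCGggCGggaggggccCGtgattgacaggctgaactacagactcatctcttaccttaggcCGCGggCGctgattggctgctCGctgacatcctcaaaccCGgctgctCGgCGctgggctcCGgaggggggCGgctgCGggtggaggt
Wnt8b promoter, chr19:44493222-44493471, plus strand: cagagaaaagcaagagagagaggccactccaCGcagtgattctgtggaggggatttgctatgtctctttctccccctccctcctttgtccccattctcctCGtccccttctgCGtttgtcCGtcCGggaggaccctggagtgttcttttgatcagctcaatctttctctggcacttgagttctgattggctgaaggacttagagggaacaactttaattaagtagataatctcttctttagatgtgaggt
Wnt7b promoter peak, chr15:85583224-85583523, minus strand: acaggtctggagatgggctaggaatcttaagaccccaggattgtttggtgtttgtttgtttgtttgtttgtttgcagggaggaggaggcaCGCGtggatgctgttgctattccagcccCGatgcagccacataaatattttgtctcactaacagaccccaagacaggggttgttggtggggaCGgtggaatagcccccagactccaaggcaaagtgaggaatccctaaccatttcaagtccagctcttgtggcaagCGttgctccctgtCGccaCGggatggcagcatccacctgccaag
Wnt5a promoter peak, chr14:28504432-28504731, plus strand: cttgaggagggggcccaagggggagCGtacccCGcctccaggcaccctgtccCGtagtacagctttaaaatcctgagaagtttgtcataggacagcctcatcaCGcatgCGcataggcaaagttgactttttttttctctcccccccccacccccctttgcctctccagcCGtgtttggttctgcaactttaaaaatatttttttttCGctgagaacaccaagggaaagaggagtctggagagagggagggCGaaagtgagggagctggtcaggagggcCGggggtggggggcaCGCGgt
Wnt7b upstream region, chr15:85625841-85626140, minus strand: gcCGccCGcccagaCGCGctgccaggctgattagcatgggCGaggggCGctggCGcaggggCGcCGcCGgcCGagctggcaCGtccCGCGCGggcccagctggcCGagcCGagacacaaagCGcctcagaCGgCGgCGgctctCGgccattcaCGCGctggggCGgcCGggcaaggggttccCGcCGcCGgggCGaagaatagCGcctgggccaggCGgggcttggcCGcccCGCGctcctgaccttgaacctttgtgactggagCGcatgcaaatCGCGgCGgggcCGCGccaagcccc

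A further 3 windows show the deepest peak of the Wnt7b locus, the intronic peak of Wnt7a and the intronic peak of Wnt10a. Here the capitals mark matches to TAATTA, a motif of homeodomain factors, to CAGATG, an E-box bound by NEUROD and NEUROG factors, or to CTTTGAT, the TCF/LEF motif, each searched on both strands.
Wnt7b downstream region, chr15:85494279-85494578, minus strand: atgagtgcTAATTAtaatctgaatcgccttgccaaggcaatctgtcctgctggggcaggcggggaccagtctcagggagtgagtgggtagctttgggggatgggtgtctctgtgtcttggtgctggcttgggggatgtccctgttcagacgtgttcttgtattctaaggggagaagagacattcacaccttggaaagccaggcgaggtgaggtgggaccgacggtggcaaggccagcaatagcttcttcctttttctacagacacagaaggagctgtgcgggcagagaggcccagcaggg
Wnt7a intron, chr6:91384323-91384622, minus strand: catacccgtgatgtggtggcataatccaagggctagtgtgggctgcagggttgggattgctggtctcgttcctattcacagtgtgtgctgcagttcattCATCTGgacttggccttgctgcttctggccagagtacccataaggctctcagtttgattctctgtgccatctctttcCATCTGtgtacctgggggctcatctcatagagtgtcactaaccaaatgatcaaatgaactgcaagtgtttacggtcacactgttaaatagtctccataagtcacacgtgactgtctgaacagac
Wnt10a intron, chr1:74797478-74797777, plus strand: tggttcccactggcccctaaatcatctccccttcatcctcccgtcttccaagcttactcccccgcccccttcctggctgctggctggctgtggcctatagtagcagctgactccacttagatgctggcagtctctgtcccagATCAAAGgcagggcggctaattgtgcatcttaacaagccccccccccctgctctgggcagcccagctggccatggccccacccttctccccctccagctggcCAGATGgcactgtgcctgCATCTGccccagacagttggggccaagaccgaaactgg

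The 4 lists differed in length and in kind, which touches every count given here. They held 46389 peaks in Ctrl-1, 7037 in Ctrl-2, 21404 in cKO-1 and 44535 in cKO-2. The depths recovered from them were 14.6, 29.6, 19.4 and 17.1 M fragments (M, mega) in that order, so the library with the most fragments had the fewest peaks. In Ctrl-2, 60.6% of peaks lay mostly in repeat-masked sequence, against 5.37 to 14.7% in the other lists. Ctrl-2 therefore stands apart, and values are given library by library or with and without it. Promoter peaks were found at 58.0% of protein-coding genes in Ctrl-1, 8.27% in Ctrl-2, 40.3% in cKO-1 and 55.9% in cKO-2, and marker counts are to be read beside these shares. Of 10 dorsal telencephalon and hippocampus markers (Emx1, Lhx2 and Prox1 among them), 10 had a promoter peak in Ctrl-1 and in cKO-2, 6 in cKO-1 and 0 in Ctrl-2. Of 8 markers of cortical hem and choroid plexus, 3 had a promoter peak in Ctrl-1 (Msx1, Rspo3 and Ttr), 0 in Ctrl-2, 1 in cKO-1 (Ttr) and 2 in cKO-2 (Msx1 and Ttr). The hem markers Lmx1a and Rspo1 had none in any list. Of 7 interneuron markers, 4 had a promoter peak in Ctrl-1 (Dlx1, Dlx2, Dlx5 and Dlx6), 0 in Ctrl-2 and cKO-1, and 1 in cKO-2 (Dlx2). With 7 to 10 genes in a list, a count of 0 in Ctrl-2 is close to what its share over all genes gives. In bulk tissue, fewer cells of a type and less open chromatin per cell cannot be told apart. No label says that replicates came from separate animals, so the p-values measure only the spread between these libraries, which may be technical.

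In Ctrl-1 and both cKO libraries a smaller share of the Wnt ligand genes than of protein-coding genes had a promoter peak. Ctrl-1 had promoter peaks at 2 of 10 ligand genes (20%, 95% Wilson interval 5.67 to 51.0%, counting error only) and at 58.0% of all protein-coding genes. In cKO-1 the shares were 1 of 10 (10%, 1.79 to 40.4%) and 40.3%, and in cKO-2 they were 1 of 10 and 55.9%. Ctrl-2 had none of 10 (upper limit 27.8%) against 8.27% of all genes, and with 10 genes a count of 0 is close to what that share gives. Among the 10869 CpG-rich genes, promoter peaks were more common still, at 89.9% in Ctrl-1, 66.9% in cKO-1, 87.4% in cKO-2 and 14.5% in Ctrl-2. Only 8.38% of CpG-rich genes (911 of 10869) had no promoter peak in any list, whereas 6 of the 8 CpG-rich ligand genes had none. These 10 genes were chosen with results of these data known, so the shares are given as a description. The intervals treat the genes as independent draws, which a chosen set with neighbouring genes is not, and they are no test of a difference.

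The 6 CpG-rich ligand genes without a promoter peak had 24 to 58 CpG, more than 68.3 to 99.8% of protein-coding genes. Wnt9a, a ligand of joint formation, had 58 CpG in the 300 bp around its TSS, more than 99.8% of protein-coding genes. Wnt3a, the hem ligand needed for the hippocampus to grow, had 45. Wnt7a, a ligand of cortical progenitors that also acts on brain blood vessels, had 41. Wnt6, known from the epithelia of somites and ectoderm, had 31, and Wnt2b, another hem ligand, and Wnt3, a ligand that astrocytes of the adult hippocampus make, had 24 each. The median over the ligand genes was 29, against 15 over all protein-coding genes. Wnt8b, a marker of the hem and the medial cortical wall, had 6, and Wnt10a, a ligand of tooth and skin development, had 7. Wnt5a and Wnt7b, the genes with a promoter peak, had 27 and 44 at the TSS with the most CpG. Their peaks lay nearest to another TSS, however, and the 300 bp around that TSS held 12 CpG at Wnt5a and 6 at Wnt7b, neither of them CpG-rich by the same limits.

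**Figure D1:**
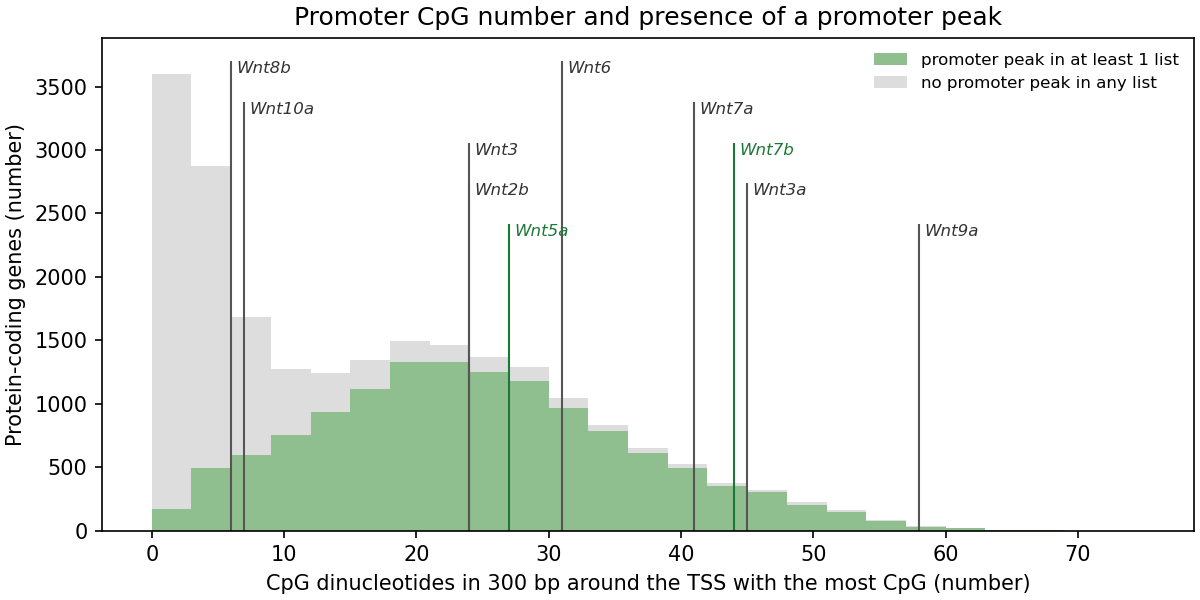
CpG dinucleotides in the 300 bp around the TSS with the most CpG (x axis) and number of protein-coding genes (y axis), with genes that any list gave a promoter peak in green and the others in grey, stacked. Vertical lines mark the 10 Wnt ligand genes, of which Wnt5a (27) and Wnt7b (44), in green, had a promoter peak, in both cases nearest to another TSS with fewer CpG (12 and 6), and the line of Wnt2b lies on that of Wnt3 (24).

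Wnt7b, which acts through beta-catenin in cortical progenitors and through other routes in dendrite growth, had the most widely shared promoter peak of the 10 genes. The gene lies at chr15:85535437-85582473 on the minus strand, with 5 annotated TSSs, and the merged peak covers chr15:85582859-85583710. Its summit lay 741 bp upstream of the nearest TSS in Ctrl-1, 821 bp upstream in cKO-1 and 901 bp upstream in cKO-2. This is in an exon of AU022754, a gene annotated next to Wnt7b. The 300 bp around the summit held 7 CpG and those around the nearest TSS 6, against 19, 42, 44 and 37 around the other 4 TSSs, which lie at least 1393 bp from the summits. The peak rested on 24 fragments in Ctrl-1 (95% exact Poisson interval 15.4 to 35.7), 15 in cKO-1 (8.40 to 24.7) and 28 in cKO-2 (18.6 to 40.5). Scaled depth, which is the fragment number at a summit over the genome-wide mean of the same library, was 14.8 in Ctrl-1 (9.48 to 22.0), 7.23 in cKO-1 (4.05 to 11.9) and 15.5 in cKO-2 (10.3 to 22.4). The 2 cKO libraries thus lay on either side of Ctrl-1, and the intervals of cKO-1 and Ctrl-1 overlap. Intervals cover counting error only.

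Ranking gave Wnt7b another order of libraries. The promoter percentile of a gene is the percentage of protein-coding genes that its best promoter peak outranks by −log10 p within 1 list, and it is 0 without a peak. For Wnt7b it was 58.8 in Ctrl-1, 0 in Ctrl-2, 64.2 in cKO-1 and 62.6 in cKO-2. The mean was 63.4 ± 1.18 (SD, n = 2) in cKO and 29.4 ± 41.6 in Ctrl, a difference of 34.0 percentile points with an exact two-sided permutation p of 0.333. That is the smallest p that the 6 assignments of 4 libraries allow, and after Benjamini-Hochberg adjustment over the 13196 genes that any list gave a promoter peak it was 1. Both cKO values were above both Ctrl values in 20.5% of those genes, so the pattern at Wnt7b is shared by many genes. Without Ctrl-2 the difference was 4.63, and with mid-ranks for genes lacking a peak it was 11.1. Among peaks with a −log10 q of at least 5 it was 1.90, because the peak of cKO-1 was lost, and among the 7037 strongest peaks of each list no library had a peak at the Wnt7b promoter. The percentile also moves with list length, because a gene with the weakest promoter peak of a list stands at 42.0 in Ctrl-1, 59.7 in cKO-1 and 44.1 in cKO-2. The rise in percentile from Ctrl-1 to cKO-1 therefore stands beside a lower scaled depth in cKO-1.

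Wnt5a, which signals through ROR receptors without beta-catenin, had a promoter peak only in Ctrl-1. The gene lies at chr14:28504750-28527448 on the plus strand, and the peak covers chr14:28504523-28504737. The summit lay 168 bp upstream of the first of 2 annotated TSSs, the one with fewer CpG, and the peak was 215 bp wide, close to the shortest peak of that list (208 bp). It rested on 12 fragments (6.20 to 21), which is a scaled depth of 7.40 (3.82 to 12.9), and it was stronger than 6.53% of the peaks of its list. Of its bases, 44.2% are repeat-masked, and runs of t and c can be read in the window printed above. The promoter percentile was 42.8 in Ctrl-1 and 0 in the other 3 libraries, a difference of -21.4 between cKO and Ctrl with an exact permutation p of 1 (adjusted p = 1). Without Ctrl-2 the difference was -42.8, and among peaks with a −log10 q of at least 5 it was 0, because that peak was lost. Both cKO values were below both Ctrl values in 2.8% of the genes tested, and Wnt5a is not among them because Ctrl-2 is at 0 too. The direction also depends on the annotation. With every GENCODE transcript start, a set tried after the data were seen, a peak in the gene body counted as a promoter peak and the difference was 2.69. The median difference over the 10 ligand genes, 8 of which are at 0 in all libraries, was 0, as it was over all protein-coding genes. Over the genes tested, which leave out genes without any promoter peak, it was 29.5, and it fell to 2.74 in lists of equal size, to 7.02 with mid-ranks for genes lacking a peak and to -1.72 without Ctrl-2.

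Around the ligand genes, Ctrl-1 and cKO-2 listed more peaks per gene than over all protein-coding genes, and cKO-1 listed fewer. Within the gene body and 50 kb on either side, the lists held 35 peaks in Ctrl-1, 0 in Ctrl-2, 12 in cKO-1 and 33 in cKO-2, counting a peak in overlapping loci once. The median number per gene was 4 in Ctrl-1, 0 in Ctrl-2, 0.5 in cKO-1 and 4 in cKO-2, against 3, 0, 2 and 3 over all protein-coding genes. Wnt7b had 7 peaks in Ctrl-1, as many as Wnt3a, and more than the other ligand genes in both cKO lists, with 6 in cKO-1 and 7 in cKO-2. In cKO-1 that number was above those of 96% of protein-coding genes, compared with 85% in Ctrl-1 and 86.0% in cKO-2. Wnt3a had 3 peaks in cKO-1 and 5 in cKO-2.

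The other ligand genes fell into those with and those without a peak in cKO-1. Wnt7a had 3 peaks in Ctrl-1, 2 in cKO-1 and 4 in cKO-2. Wnt8b and Wnt9a each had 3 in Ctrl-1, 1 in cKO-1 and 2 in cKO-2. Wnt2b, Wnt3, Wnt5a, Wnt6 and Wnt10a had no peak in cKO-1, while their numbers in Ctrl-1 and cKO-2 were equal, at 4, 2, 4, 5 and 5. For no gene of the 10 were both cKO numbers above both Ctrl numbers or both below. Among protein-coding genes with a peak in the locus, 1.12% had both cKO numbers above and 0.52% had both below. Wnt6 and Wnt10a are neighbours and share all 5 peaks, and Wnt3a and Wnt9a share 3, so these genes are not independent.

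**Figure D2:**
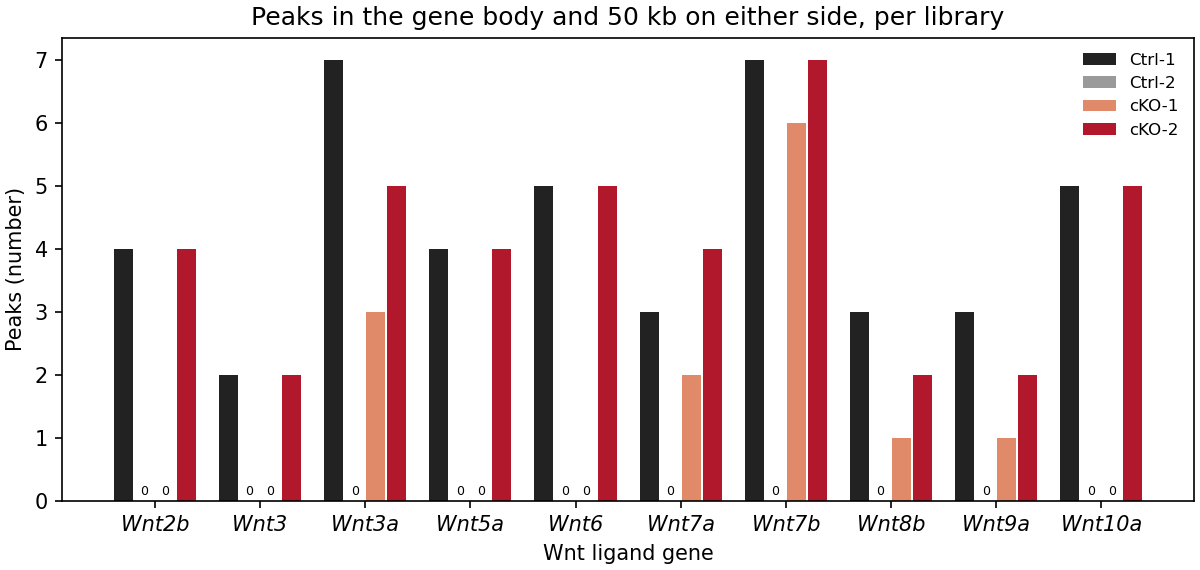
Number of peaks (y axis) in the gene body and 50 kb on either side of each Wnt ligand gene (x axis), with 1 bar per library and a 0 where a list had none. Ctrl-2 is at 0 for all 10 genes, Wnt7b has 7, 6 and 7 peaks in the other libraries, and 5 genes have none in cKO-1.

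When peaks of different lists that share at least 1 bp were merged, the loci held 40 regions of 58652 in all. Ctrl-1 and cKO-2 alone shared 16 of them (40% of the regions, compared with 27.1% of all merged regions), and Ctrl-1 and both cKO lists shared 12 (30% against 25.9%). A further 7 were found only in Ctrl-1 (17.5% against 18.8%) and 5 only in cKO-2 (12.5% against 14.1%), both near the share of all regions. None was found in both cKO lists without any Ctrl list, a pattern of 0.692% of all regions, or in both Ctrl lists without any cKO list, a pattern of 0.305%. Of the 40 regions, 2 were promoters of the ligand genes, 7 were promoters of neighbouring genes and 31 lay away from promoters. That places 22.5% at a promoter of any gene, against 28.7% of all merged regions. By annotation, 20 summits were intergenic, 11 intronic and 9 in exons or UTRs.

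The Wnt7b locus held 6 of the 12 regions with a peak in Ctrl-1 and both cKO lists. The deepest, at chr15:85494071-85494897 in an intron of 7530416G11Rik, 83.6 kb downstream of the nearest Wnt7b TSS, reached a scaled depth of 24.0 in Ctrl-1 (17.1 to 32.9), 13.5 in cKO-1 (8.97 to 19.5) and 31.6 in cKO-2 (23.9 to 40.9). An intergenic region 28.4 kb upstream, at chr15:85610677-85611203, reached 22.2 (15.5 to 30.7), 7.71 (4.41 to 12.5) and 25.5 (18.6 to 34.0) in the same libraries. Another, 43.5 kb upstream at chr15:85625720-85626486, is the CpG-rich window printed above, with 41 CpG in 300 bp, and it reached 16.0 (10.5 to 23.5), 8.20 (4.77 to 13.1) and 18.8 (13.0 to 26.3). These regions shared 1 order, with cKO-1 lowest and cKO-2 highest.

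That order held in 5 of the 6 shared Wnt7b regions, the promoter included, and in 8 of the 12 shared regions of all the ligand loci. Genome-wide, 31.9% of the 18435 regions shared by these 3 lists had it. At 31.0 kb upstream the scaled depths were 14.8 in Ctrl-1, 8.68 in cKO-1 and 17.2 in cKO-2. In the sixth, an intergenic region 72.4 kb downstream of the nearest TSS, they were 8.63 (4.72 to 14.5), 8.68 (5.14 to 13.7) and 11.6 (7.20 to 17.8), so both cKO values were above Ctrl-1, with overlapping intervals. It was the only region of the 12 in which both cKO depths exceeded Ctrl-1, a pattern found in 5.84% of such regions genome-wide. Inside the gene body, Wnt7b had an intronic peak only in Ctrl-1 (11 fragments, scaled depth 6.78) and another only in cKO-2 (15 fragments, 8.30).

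**Figure D3:**
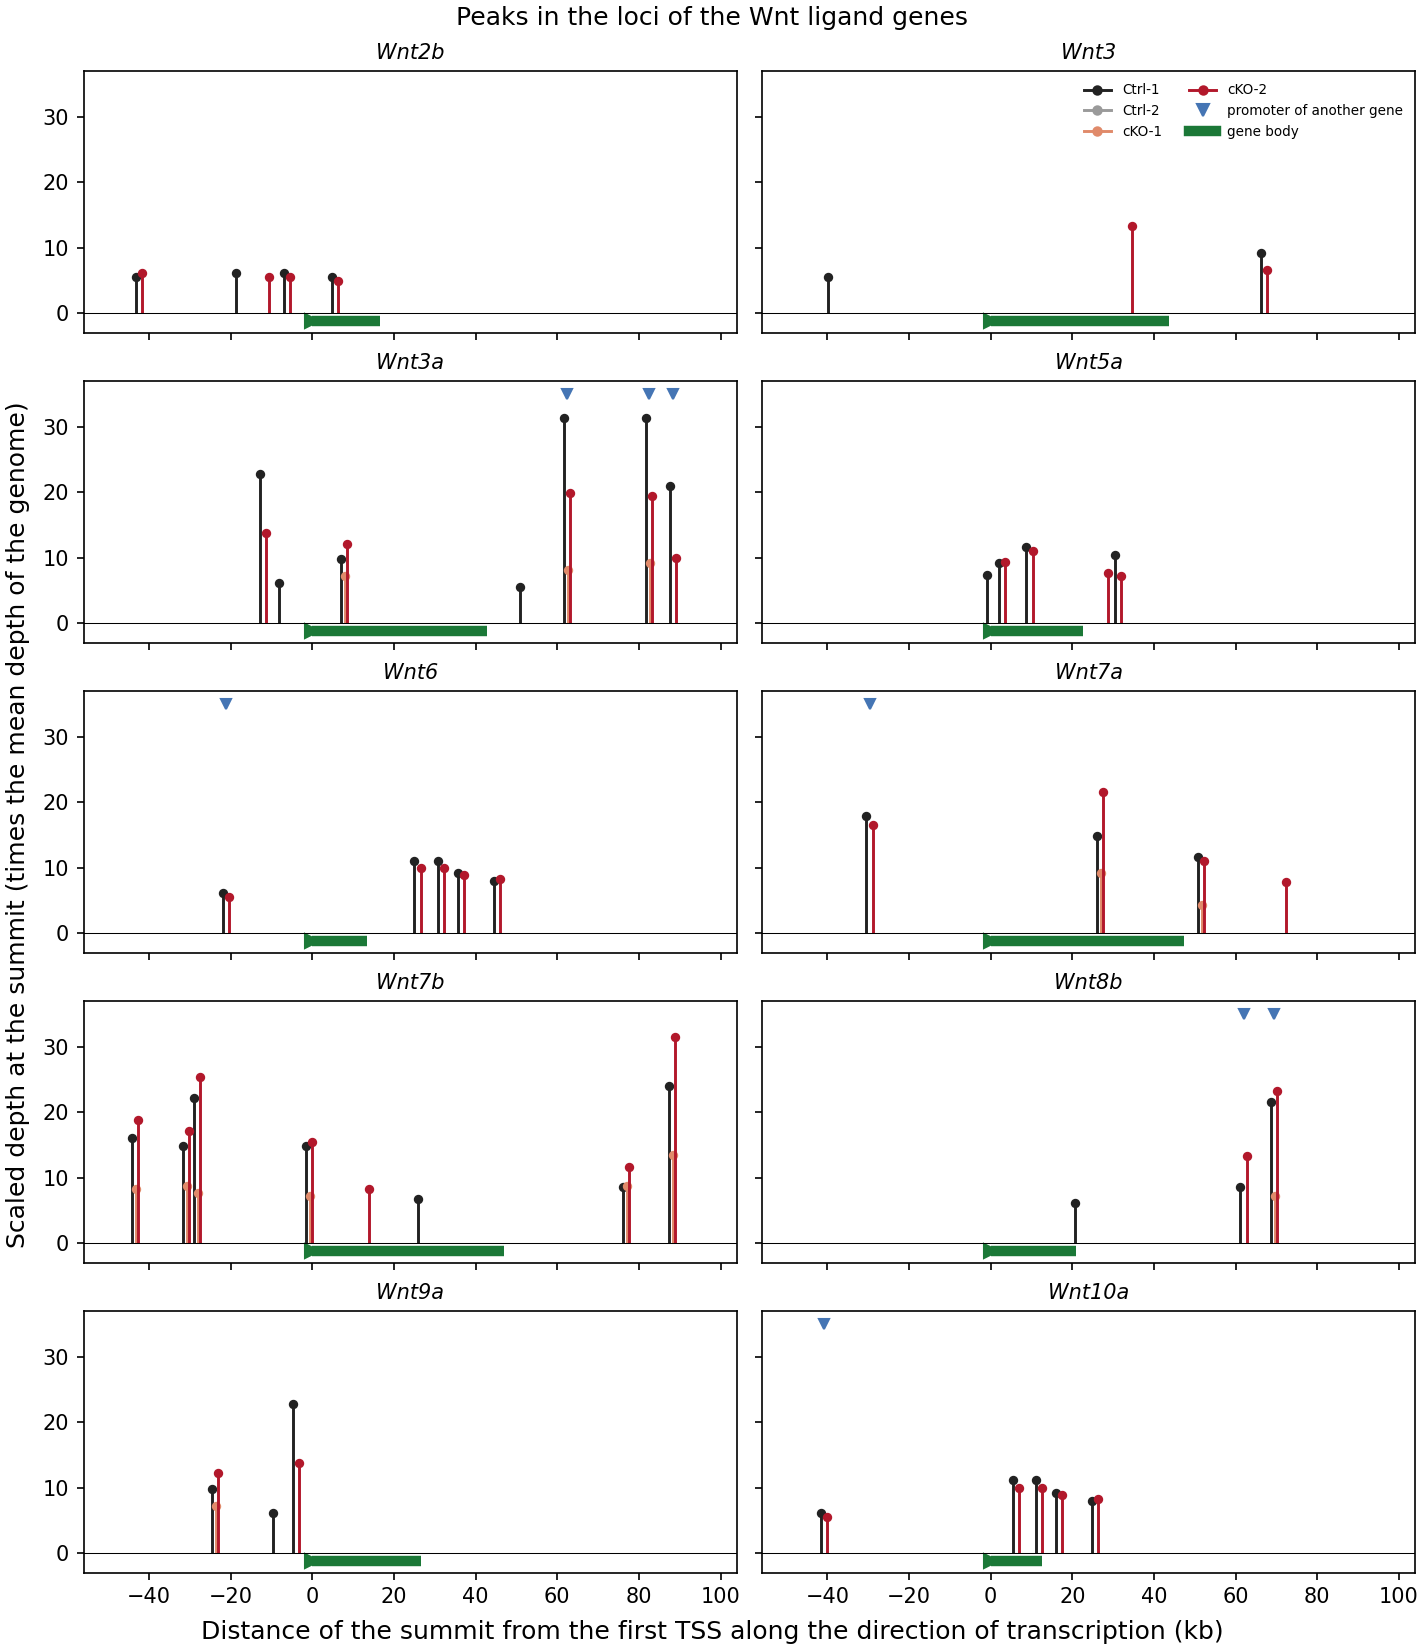
Scaled depth at peak summits (y axis, times the mean depth of the genome) against distance from the first TSS along the direction of transcription (x axis, kb) for each Wnt ligand gene. Stems are peaks coloured by library and set side by side by 0.5 kb, green bars are gene bodies and blue triangles mark promoters of other genes, and at Wnt7b the cKO-2 stems are the tallest in all 6 regions shared by 3 lists.

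Wnt7a had 2 shared regions. The stronger of these 2 lay in an intron at chr6:91384034-91384717, 26.9 kb downstream of the TSS, and holds 2 E-boxes in the sequence printed above. Scaled depth there was 14.8 in Ctrl-1 (9.48 to 22.0), 9.16 in cKO-1 (5.51 to 14.3) and 21.6 in cKO-2 (15.4 to 29.5). The other, 51.5 kb downstream, reached 11.7 (7.05 to 18.3), 4.34 (1.98 to 8.24) and 11.1 (6.76 to 17.1). In the intron Ctrl-1 lay between the cKO libraries, and at the downstream region cKO-1 was at the lowest depth at which that list calls a peak.

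At Wnt3a, the 2 deepest regions belong to other genes, being the promoters of Arf1 and of 2310033P09Rik with Gm10434. Both reached a scaled depth of 31.4 in Ctrl-1 (23.4 to 41.3). The Arf1 promoter reached 8.20 in cKO-1 (4.77 to 13.1) and 19.9 in cKO-2 (14.0 to 27.6), and the other promoter 9.16 (5.51 to 14.3) and 19.4 (13.5 to 26.9). An intron of Wnt3a itself, 7.68 kb downstream of its TSS (chr11:59282942-59283444), reached 9.86 (5.64 to 16.0), 7.23 (4.05 to 11.9) and 12.2 (7.63 to 18.4) in Ctrl-1, cKO-1 and cKO-2. Between Wnt3a and Wnt9a, an intergenic region 3.98 kb upstream of the Wnt9a TSS (chr11:59302646-59303051) reached 22.8 in Ctrl-1 (16.1 to 31.4) and 13.8 in cKO-2 (8.96 to 20.4), and had no peak in cKO-1. Here Ctrl-1 was the higher library, the reverse of the order at Wnt7b, and the intervals overlap.

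Wnt8b peaks were mostly those of its neighbours. The Hif1an promoter, 69.4 kb downstream, reached 21.6 in Ctrl-1 (15.0 to 30.0), 7.23 in cKO-1 (4.05 to 11.9) and 23.2 in cKO-2 (16.8 to 31.4), and the Ndufb8 promoter reached 8.63 and 13.3 in Ctrl-1 and cKO-2. The 1 region not at a promoter was listed only in Ctrl-1, on 10 fragments.

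Wnt6 and Wnt10a, which lie side by side on chromosome 1, shared a group of low peaks. Of these, 1 lay at the Prkag3 promoter, 21.1 kb upstream of the Wnt6 TSS, and the others lay within and beyond Wnt10a. The intronic peak printed above (chr1:74797396-74797785) reached a scaled depth of 11.1 in Ctrl-1 (6.58 to 17.5) and 9.96 in cKO-2 (5.91 to 15.7), on 18 fragments in each. A peak in a coding exon of Wnt10a rested on the same 18 fragments in both. Neither region had a peak in cKO-1.

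Wnt5a had an intronic peak of 11.7 in Ctrl-1 (7.05 to 18.3) and 11.1 in cKO-2 (6.76 to 17.1), and a peak 24.7 kb beyond its second annotated TSS of 10.5 (6.10 to 16.8) and 7.20 (3.83 to 12.3). Wnt2b had shallow peaks throughout, with scaled depths from 4.98 to 6.16 on 9 to 11 fragments. Wnt3 had 1 region in 2 lists, in an intron of Nsf 67.0 kb downstream, at 9.25 in Ctrl-1 (5.18 to 15.3) and 6.64 in cKO-2 (3.43 to 11.6). A peak in a coding exon of Wnt3 (chr11:103808120-103808363) was listed only in cKO-2, on 24 fragments (scaled depth 13.3, 8.51 to 19.8), and was singled out after its values were seen as the deepest region of the loci that only 1 list held.

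Across the 12 shared regions, the median ratio of scaled depth was 0.50 for cKO-1 over Ctrl-1, against 0.444 over all 18435 such regions. It was 1.15 for cKO-2 over Ctrl-1, against 0.922. Scaled depth in cKO-1 was below Ctrl-1 in 11 of the 12 regions, as in 92.9% of all such regions, and cKO-2 was above Ctrl-1 in 9 of the 12, compared with 37.7%. Both cKO libraries were below Ctrl-1 in 3 of the 12, compared with 61.1%. The wider set of 28 regions with a peak in Ctrl-1 and cKO-2 had cKO-2 higher in 13, compared with 39.2% of 34487, and its median ratio was 0.951 against 0.927. Of the 9 shared regions in which cKO-2 was higher, 6 were at Wnt7b. Members of 1 locus share their surroundings, so no test was made over regions.

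**Figure D4:**
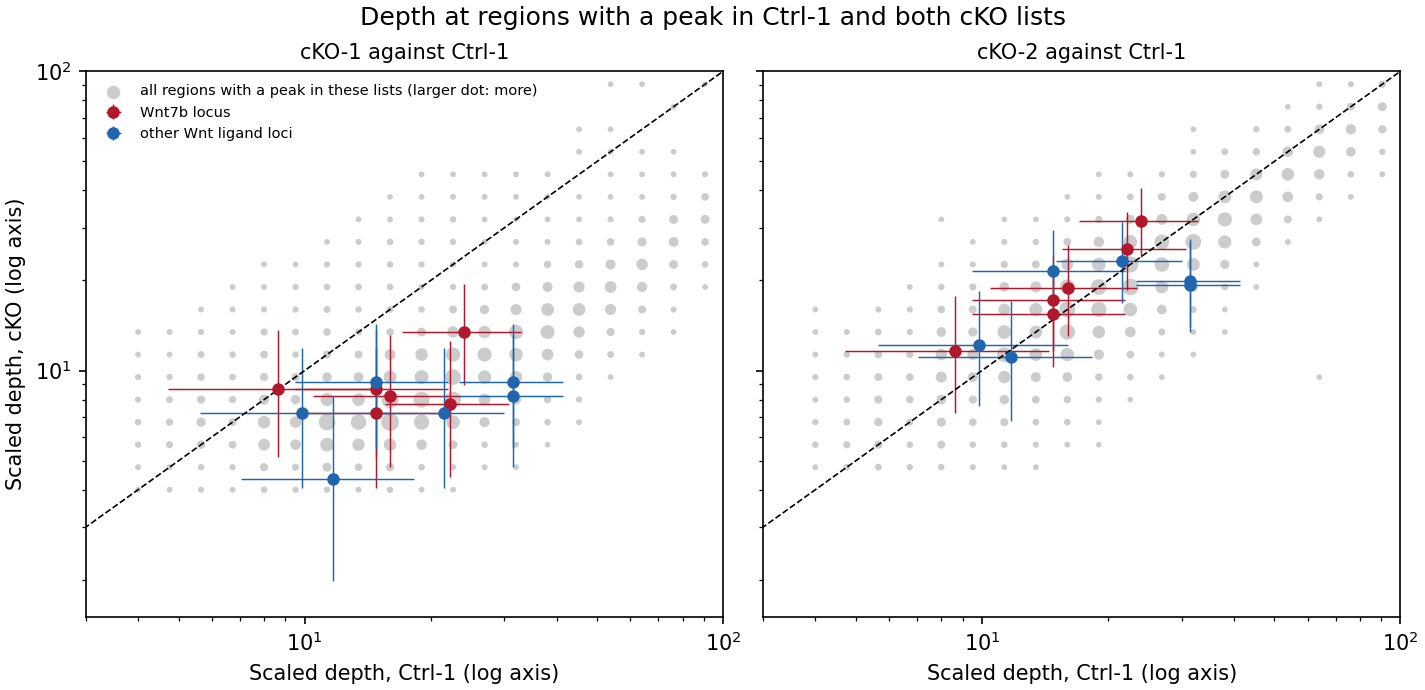
Scaled depth in cKO-1 (left) and cKO-2 (right) against Ctrl-1 at regions with a peak in all 3 lists, on log axes. Grey dots are the 18435 regions genome-wide on a grid, with larger dots for more regions and the deepest outside the axes, and coloured points are the 12 regions of the Wnt ligand loci with 95% exact Poisson intervals, which lie mostly below the dashed line of equality on the left (11 of 12) and mostly above it on the right (9 of 12).

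Ctrl-2 had the most fragments and the highest mean depth over the genome (3.46, against 1.62 to 2.07). Its shallowest peak held 12 fragments, more than that of Ctrl-1 (7), cKO-1 (9) or cKO-2 (8), which on the scaled depth is 3.46, against 4.32 to 4.43 in the other lists. Its median peak stood at a scaled depth of 5.77, against 11.1 in Ctrl-1, 8.68 in cKO-1 and 11.1 in cKO-2. None of the 12 shared regions had a peak in Ctrl-2, and 17.7% of all shared regions did. What separates this library from Ctrl-1 was not tested.

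The 3 motifs were looked for in 300 bp around each summit. Among the 31 windows away from promoters, 13 held CAGATG (33.8% of the 41837 such windows genome-wide hold it), 3 held TAATTA (14.9%) and 2 held CTTTGAT (4.49%). The CTTTGAT matches were in the intron of Wnt10a printed above and in an intergenic region upstream of Wnt2b, where a CAGATG match read on the other strand follows directly. The 2 promoter windows, of Wnt7b and Wnt5a, held none of the 3 motifs, which says only that these letters are not in those windows. Of the 16815 promoter windows genome-wide, 14.1% hold CAGATG, 3.77% TAATTA and 2.34% CTTTGAT. Among the 7 windows at promoters of other genes, 2 held CAGATG, and 0 held TAATTA or CTTTGAT. A match is a description of the sequence and not evidence of binding.

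The other genes of the pathway were counted in the same way, and no test of a difference from the ligands was made. The shares of all protein-coding genes with a promoter peak were 58.0% in Ctrl-1, 8.27% in Ctrl-2, 40.3% in cKO-1 and 55.9% in cKO-2, and those of CpG-rich genes 89.9, 14.5, 66.9 and 87.4%. Of the 15 receptor genes (Frizzled, LRP5/6, ROR and RYK), 13 had a promoter peak in Ctrl-1, 0 in Ctrl-2, 8 in cKO-1 and 12 in cKO-2. The 8 genes of the cytoplasmic chain, from Dvl1 to Ctnnb1, had promoter peaks in all 3 of the longer lists, and Apc and Gsk3b had them in Ctrl-2 too. Of 11 nuclear factors and feedback targets, 10 had a promoter peak in Ctrl-1, 1 in Ctrl-2 (Axin2), 5 in cKO-1 (Axin2, Lgr5, Sp5, Tcf7l1 and Znrf3) and 10 in cKO-2. Of 9 secreted antagonists, which bind Wnt or LRP proteins, 6 had a promoter peak in Ctrl-1, 0 in Ctrl-2, 3 in cKO-1 and 5 in cKO-2. Porcn and Wls, needed to modify and release Wnt proteins, had promoter peaks in Ctrl-1 and cKO-2, and Notum, which inactivates them, had none.

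Of the remaining 9 Wnt ligand genes, 4 had a promoter peak in Ctrl-1 (Wnt2, Wnt4, Wnt11 and Wnt16), which is 44.4%, against 20% of the 10 described here and 58.0% of protein-coding genes. In cKO-2 there was 1 (Wnt2, 11.1% against 10% and 55.9%), and the other lists had none. Both cKO percentiles were above both Ctrl percentiles in 3 of 13 tested receptor genes, 1 of 8 genes of the cytoplasmic chain, 2 of 10 nuclear factors and feedback targets, 1 of 7 antagonists and 0 of 4 other ligands, compared with 20.5% of all genes tested. These counts lie near that background. Both cKO percentiles were below both Ctrl percentiles in 1 of the 8 genes of the cytoplasmic chain (Apc) and in none of the other groups, compared with 2.8% of all genes tested.

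**Figure D5:**
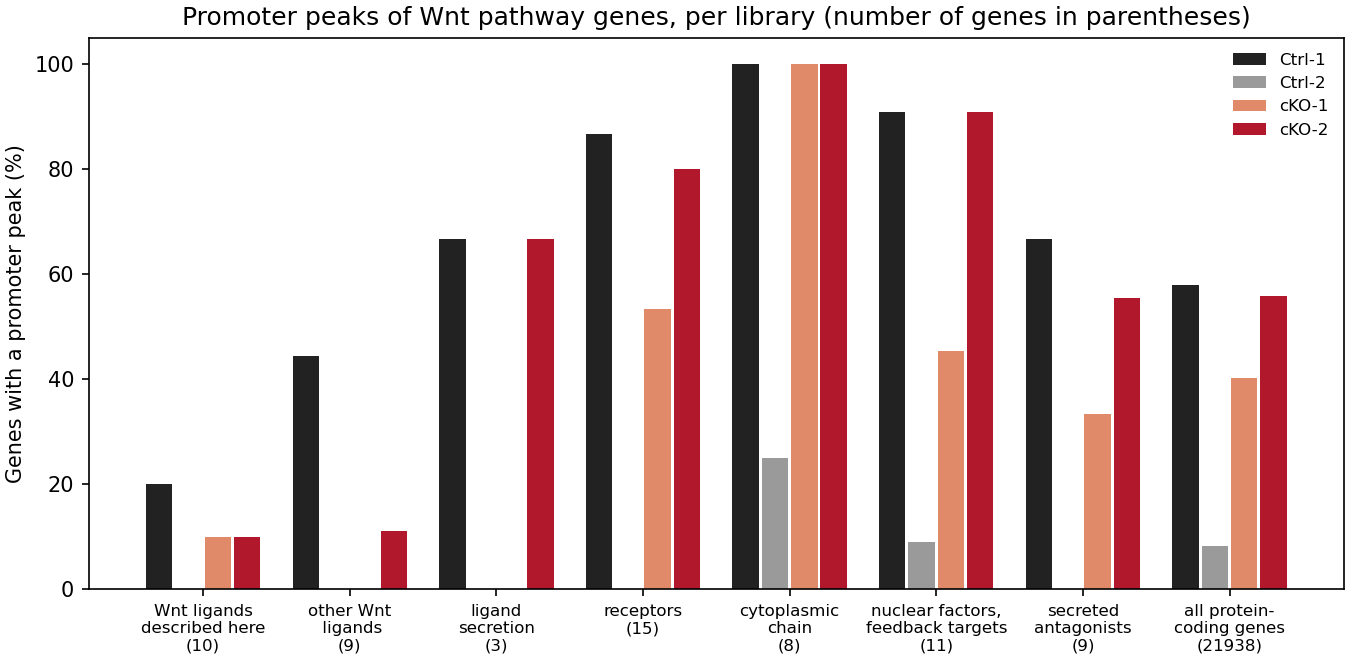
Share of genes with a promoter peak (y axis, %) in each group of Wnt pathway genes, with the number of genes in parentheses and 1 bar per library. The 10 ligand genes reach 20% in Ctrl-1 and 10% in each cKO library, below all protein-coding genes (58.0, 40.3 and 55.9%), while the cytoplasmic chain reaches 100% in these 3 lists.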

How the data were processed

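The deposited files hold 1 peak list per library. According to the study's methods, the authors used cutadapt for trimming and Bowtie2 for alignment to mm10. They then removed blacklisted, mitochondrial and duplicate reads, applied the Tn5 offset and ran MACS2 2.2.7.1 on paired fragments. The settings listed there name no control library, and each list was taken here to come from its library alone. The authors' fold enrichment is a ratio to local background, and their −log10 p-values and −log10 q-values come from a Poisson test against it. The deposited score, a display value of MACS2, was not used. Trimming to short reads and removing duplicates may lower depth in repeats and at strong peaks, which was not measured.

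Fragment depths were recovered from the deposited fold and −log10 p-value, and a whole number fitted within 0.01 for at least 99.4% of peaks in each list. The lowest background was taken as the mean genome depth. Fragment totals also rest on MACS2's default minimum peak length and were not checked against reads. TSSs came from the basic GENCODE M21 set and sequences from GRCm38. Each list was ranked by −log10 p. The calculations used Python 3.11.15 with NumPy 2.4.6, pandas 2.3.3, SciPy 1.17.1 and pysam 0.24.0, and were tested on simulated data. Percentiles were compared by an exact two-sided permutation test over libraries with Benjamini-Hochberg adjustment over 13196 genes. All 10 genes are described, with at most the 2 strongest regions per gene that at least 2 lists held and every promoter region, and further regions for Wnt7b and other loci chosen after their values were seen. The alternatives are given in the closing section. Groups and replicate numbers came from the sample titles, which name hippocampus, whereas the source field names neural progenitor cells. The genes, lists and motifs were chosen with earlier results of these data known.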

Additional observations from a re-analysis of the deposited data

How the results depend on the processing

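Differences are cKO minus Ctrl, and the exact permutation and sign-flip tests used here cannot go below p = 0.333 and 0.5 with 2 libraries per group. Over the 4 fits that each left out 1 library, the difference in peaks in the ligand loci (5 peaks per library with all 4) ranged from -12.5 without Ctrl-2 to 22.5 without Ctrl-1, and was -5.5 without cKO-2. It ranged from -3 to 4 at Wnt3a, from -0.5 to 6.5 at Wnt7b, and from -1.72 to 62.2 percentile points for the median over all genes tested. For the scaled depth of the Wnt7b promoter peak against Ctrl-1 (-3.43 with both cKO libraries) the range was -7.56 to 0.704. At Wnt3a the difference in peaks was also -1 in lists of equal size and -0.5 with 10 kb on either side. Over all the ligand loci that difference was 0.5 in lists of equal size, 1 with 10 kb and 10 with 100 kb. At Wnt7b it was 3 with 50 kb and 7.5 with 100 kb. When genes lacking a peak were given mid-ranks, the median percentile difference was -7.46 over the ligand genes and 7.02 over all genes tested, and that of Wnt7b was 11.1. With every GENCODE transcript, added after the data were seen, the difference at Wnt5a was 2.69. The cause of these changes was not tested. Over all alternatives, those above included, 36 values that answer a comparison and 214 others neither reversed nor moved beyond the SD between libraries. A further 1 and 22 were counted as moved, and 3 and 7 reversed. The SD takes in the 0 peaks of Ctrl-2, so a change from 5 to 22.5 peaks in the ligand loci counted as unmoved. At the 8 ligand genes without a promoter peak, the percentile difference was 0 in every setting except mid-ranks. The replicate block leaves every difference as it is. The number of unmoved values is therefore no measure of stability. For the median over all genes tested, a change from 29.5 to 29.6 without repeat-masked peaks already counted as moved. The titles give same-numbered libraries only a number in common, and their deviations correlated at r = 0.053 over 13196 genes. Ctrl-2 had a promoter peak at only 8.27% of protein-coding genes, so this r cannot tell whether such libraries were paired. With the replicate block the Wnt7b difference stayed 34.0 with an exact sign-flip p of 0.5, the smallest that such pairs allow. Fragment number limits single peaks, since the median peak of a list rests on 18 to 20 fragments.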
